A study of Mus musculus with 4 samples.

Results

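Ifit1, Ifit3, Isg15, Oasl2, Stat2, Irf7, Irf9, Ddx58 and Rsad2 are 9 genes of the interferon response. They were chosen by name for their place in that response and not by any measured value, and all 9 were among the 23492 gene symbols that the 4 expression tables share. The cells were C2C12, a mouse myoblast line that leaves the cell cycle and fuses into myotubes after growth medium is replaced by differentiation medium (DM). MB were proliferating myoblasts labelled DM -24 h and MT were myotubes labelled DM 72 h (the study's text gives a shorter time for MT in an RNA-seq comparison whose library type it does not name), and total RNA depleted of ribosomal RNA was sequenced from both by a strand-specific method. si-NC and si-hnRNPL were cultures transfected with a negative control siRNA or an siRNA against Hnrnpl with a cationic lipid reagent (Lipofectamine) and collected at DM 48 h, and their poly(A)+ RNA was sequenced with a kit that the labels do not describe as strand-specific. The series holds 1 library of each of these 4 cultures, so no difference between cultures could be set against the spread of repeat cultures and p-values are not reported. No polyA library of untransfected cells was analysed here.

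As background, mammalian cells detect foreign RNA in the cytoplasm through RIG-I, the protein of Ddx58, which signals through the adaptor Mavs to the transcription factors Irf3 and Irf7 and so to the genes of type I interferons. Secreted interferon binds the receptor Ifnar1/Ifnar2, whose kinases Jak1 and Tyk2 activate Stat2. Stat2 and Irf9 act in ISGF3, a complex that binds interferon-stimulated response elements (ISRE) in the promoters of target genes. Ifit1, Ifit3, Isg15, Oasl2 and Rsad2 are such targets and encode antiviral proteins, while Ddx58, Irf7, Stat2 and Irf9 are both parts of the pathway and targets of it. Short double-stranded RNA delivered with cationic lipid is a known trigger of these sensors in many cell types.

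In the mm9 annotation (NCBIM37) all 9 members are protein-coding genes at separate loci. Ifit1 (chr19:34715361-34724499) and Ifit3 (chr19:34658021-34663221) lie on the plus strand of chromosome 19, and Isg15 (chr4:155573533-155574927) and Ddx58 (chr4:40150806-40186861) lie on the minus strand of chromosome 4. Stat2 (chr10:127707629-127729905), Irf9 (chr14:56222408-56228867) and Oasl2 (chr5:115346943-115362243) are on the plus strand, and Irf7 (chr7:148448605-148452380) and Rsad2 (chr12:27127618-27141317) are on the minus strand. The core of the ISRE, GAAA followed by any 2 bases and GAAA again, was searched on both strands of RefSeq promoters from 250 bases before to 50 bases after the start site (assembly GRCm38.p6). It was present in 3.44% of 32851 promoters, and in the promoters of 6 of the 9 members: Ifit1, Ifit3, Isg15, Stat2, Ddx58 and Rsad2. No match was found in these windows of Oasl2, Irf7 and Irf9. The core of the gamma-activated site, TTCNNNGAA, was present in 8.30% of the promoters and in those of 0 of the 9 members. The windows below are shown because they carry the matches upstream of the start site, and they run from 20 bases before the first match to the last base before the RefSeq start site. They are given on the strand of the gene as in mm9, with the matched bases in capitals. They lie at chr19:34715255-34715378 for Ifit1, chr19:34657843-34658018 for Ifit3, chr4:155574928-155575025 (minus strand) for Isg15, chr10:127707312-127707553 for Stat2 and chr12:27141318-27141457 (minus strand) for Rsad2.
Ifit1: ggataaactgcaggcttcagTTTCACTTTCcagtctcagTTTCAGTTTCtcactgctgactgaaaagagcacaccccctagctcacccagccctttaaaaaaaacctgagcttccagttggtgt
Ifit3: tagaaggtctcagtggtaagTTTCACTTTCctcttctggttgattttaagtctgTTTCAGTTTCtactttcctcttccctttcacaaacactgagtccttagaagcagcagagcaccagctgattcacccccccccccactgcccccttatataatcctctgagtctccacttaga
Isg15: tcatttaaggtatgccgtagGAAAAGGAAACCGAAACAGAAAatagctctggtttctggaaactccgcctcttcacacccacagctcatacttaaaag
Stat2: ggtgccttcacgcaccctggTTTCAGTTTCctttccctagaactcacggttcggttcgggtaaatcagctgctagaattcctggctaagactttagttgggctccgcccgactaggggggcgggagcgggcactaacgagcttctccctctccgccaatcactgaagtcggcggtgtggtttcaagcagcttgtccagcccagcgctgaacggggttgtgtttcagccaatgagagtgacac
Rsad2: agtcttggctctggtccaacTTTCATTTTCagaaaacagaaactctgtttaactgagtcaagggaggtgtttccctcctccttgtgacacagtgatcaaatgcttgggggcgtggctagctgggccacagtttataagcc
Ifit1 and Ifit3 each held 2 separate matches, read on the opposite strand, and Isg15 held 3 that overlap each other on its own strand between -78 and -57. The single match of Stat2 lay far upstream at -222 to -213, that of Rsad2 at -120 to -111, and that of Ddx58 inside the transcribed part at 3 to 12. A match is a description of letters and not a measured binding site.

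**Figure D1:**
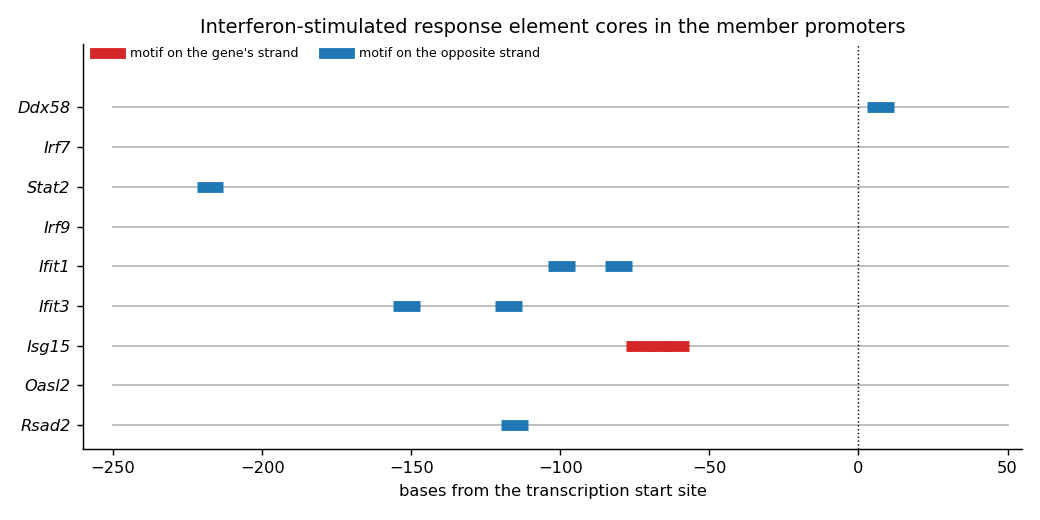
Positions of the ISRE core in the promoters of the 9 members. Each gray line is a promoter from 250 bases before to 50 bases after the RefSeq start site (dotted line), and thick bars are matches on the strand of the gene (red) or the opposite strand (blue). Isg15 shows 3 overlapping matches, Ifit1 and Ifit3 show 2 each, and Oasl2, Irf7 and Irf9 show none.

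The sense strands of both siRNAs are shown because each polyA library carries one of them. The capitals mark bases 12 to 18, which face the seed of the guide strand.
si-NC: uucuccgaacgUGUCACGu
si-hnRNPL: gcgugcuucugUUUACCAu
Exact matches of the full sequences were searched in the protein-coding transcripts of the annotation. The si-hnRNPL sequence matched Hnrnpl and no other gene there, in a coding exon at chr7:29599064-29599082, and it matched 0 of the 9 members. The si-NC sequence matched 0 genes there. Noncoding transcripts and matches of the seed alone were not searched. Both are 19 bases long, with 10 G or C bases in si-NC and 9 in si-hnRNPL, and 6 and 8 U.

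The widths of the intervals that Cufflinks gave each FPKM correspond to 59960176 fragments for MB and 54442423 for MT. They correspond to fewer for the transfected libraries (21341051 for si-NC, 14592480 for si-hnRNPL). Of the implied values under 200 fragments, 91.5% in MB and 91.3% in MT were whole numbers, but 45.1% in si-NC and 43.8% in si-hnRNPL. The sums of the transfected libraries are therefore not plain counts of fragments, and their depth was not measured directly. Such a 95% interval takes in the error of counting and assigning fragments of 1 library and leaves out the variation between cultures. Hnrnpl, the target of the siRNA, stood at 111 FPKM in MB, 63.0 in MT, 95.1 (interval 92.7 to 97.5) with si-NC and 85.9 (83.1 to 88.7) with si-hnRNPL, a log2 difference between the transfected cultures of -0.14 (-0.20 to -0.09). All 7 muscle markers examined were higher in MT than in MB, among them Myog, the myogenic factor of terminal differentiation, with 0.695 and 251 FPKM. In si-hnRNPL the muscle genes Ckm (45.0 and 74.3 FPKM) and Acta1 were also above si-NC past the fold of 1.5. Of 10 markers of immune cells, Adgre1, Siglech and Cd3e were listed at 0 in the 4 libraries and the leukocyte gene Ptprc reached at most 0.00871 FPKM. The summed level of the 10 was 8.21 FPKM in MB, 6.04 in MT, 8.84 in si-NC and 11.2 in si-hnRNPL, and most of it was Cd14 (6.86, 4.77, 7.85 and 10.5).

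The interferon response genes were expressed at low levels in all 4 cultures. Their median was 0.231 FPKM in MB, 1.81 in MT, 1.16 in si-NC and 1.72 in si-hnRNPL, and their summed level was 9.01, 20.1, 25.8 and 27.3 FPKM. Of the 9, 3 reached 1 FPKM in MB, 5 in MT, 6 in si-NC and 7 in si-hnRNPL. The median of all symbols above 0 was 5.28 FPKM in MB, 4.47 in MT, 6.79 in si-NC and 6.94 in si-hnRNPL, and all 9 members lay below it in MB, 7 in MT and 8 in each transfected culture.

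The order of the members was similar in the 4 libraries: Stat2 was first and Rsad2 last in each. Stat2, Irf9 and Ddx58 formed the upper group, from 2.27 to 3.08 FPKM in MB and from 5.26 to 7.49 FPKM in si-hnRNPL. Within it, the intervals of Ddx58 and Irf9 overlapped in MB, si-NC and si-hnRNPL but not in MT, where Irf9 was above Ddx58. Isg15 stood among the low genes in MB and next to the upper group in the transfected cultures, where its interval overlapped that of its neighbor above. Ifit3, Ifit1, Oasl2 and Irf7 formed the lower group. Adjacent genes of that group overlapped in MB, si-NC and si-hnRNPL, although Ifit3 was clear of Irf7 in si-NC and of Ifit1 in si-hnRNPL, whereas in MT the intervals of Ifit3, Ifit1 and Oasl2 were separate from each other.

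**Figure D2:**
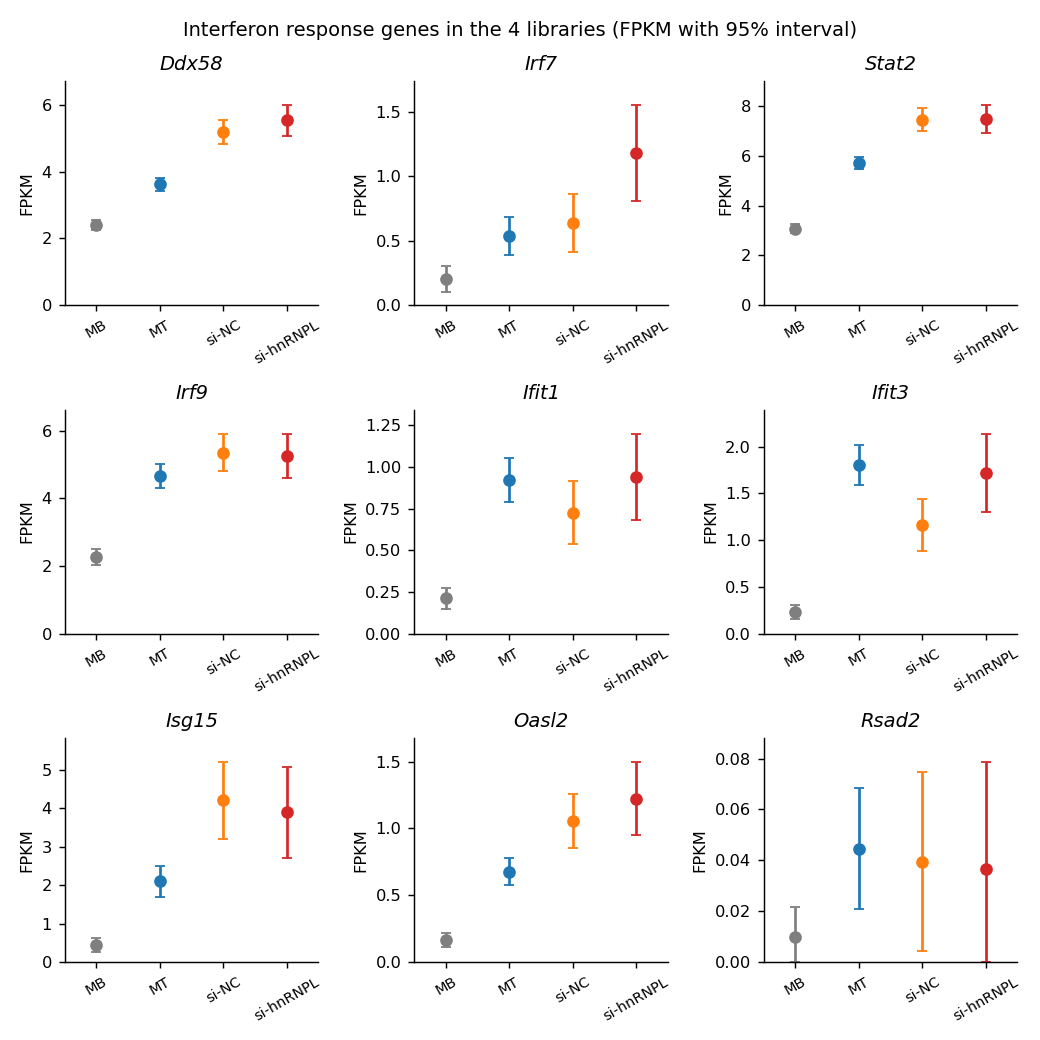
FPKM of the 9 members in the 4 libraries (y axis, linear from 0 and scaled for each gene), ordered by role from the sensor Ddx58 to the antiviral effectors. Points are the deposited values and bars their 95% interval within the library, with 1 library per condition. MB is the lowest point in every panel, and the intervals of si-NC and si-hnRNPL overlap for all 9 genes.

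The first comparison asked how the members differed between MT and MB. All 9 had a higher FPKM in MT, as did 38.9% of the genes that reached 1 FPKM in either library. Of the 9, 5 (Ifit3, Isg15, Irf9, Stat2 and Ifit1) were past the fold of 1.5, counted as a log2 difference of FPKM + 1 of at least 0.58. The same fold was passed upward by 15.4% and downward by 28.5% of the 11696 genes that reached 1 FPKM in either library, and upward by 10.6% of the 18231 genes above 0 in either. The median difference of the 9 members was 0.66 and that of the 11696 genes was -0.20. In bulk RNA, fewer cells of a type and less RNA per cell cannot be told apart.

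Among the factors of the signaling complex, Stat2 had 3.08 FPKM (2.89 to 3.27) in MB and 5.72 (5.47 to 5.97) in MT. Irf9, the DNA-binding part of ISGF3, had 2.27 (2.02 to 2.51) and 4.67 (4.31 to 5.02). Both were higher in MT with intervals that did not overlap, by log2 differences of 0.72 (0.64 to 0.81) for Stat2 and 0.79 (0.66 to 0.94) for Irf9. Of the 11696 genes that reached 1 FPKM in either library, 33.9% had an interval of the log2 difference wholly above 0.

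The sensor Ddx58 had 2.40 FPKM (2.24 to 2.55) in MB and 3.62 (3.43 to 3.80) in MT, and its log2 difference of 0.44 (0.35 to 0.53) stayed under the fold. Irf7, the factor that amplifies the production of interferon, had 0.203 (0.0984 to 0.308) and 0.538 (0.392 to 0.684), a difference of 0.35 (0.17 to 0.54) that was also under it. For both genes MT was above MB beyond the intervals, and Irf7 rested on few fragments, equivalent to 15.1 in MB.

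The antiviral effectors were low in MB, and on the log2 scale of FPKM + 1 Ifit3 and Isg15 differed more than Stat2 and Irf9 while Ifit1, Oasl2 and Rsad2 differed less. Ifit1 encodes a protein that binds foreign RNA, and Ifit3 a protein of the same family. Ifit3 had 0.231 FPKM (0.153 to 0.309) in MB and 1.81 (1.59 to 2.02) in MT, a log2 difference of 1.19 (1.05 to 1.33), and Ifit1 had 0.212 (0.148 to 0.276) and 0.920 (0.789 to 1.05), a difference of 0.66 (0.54 to 0.79). Isg15, a ubiquitin-like protein that is attached to other proteins, had 0.445 (0.255 to 0.635) and 2.10 (1.70 to 2.50), a difference of 1.10 (0.83 to 1.37). The intervals of these 3 genes did not overlap between MB and MT, and the share of all genes without such overlap is not reported here. Oasl2, a protein of the oligoadenylate synthetase family, had 0.166 (0.114 to 0.218) and 0.677 (0.575 to 0.780), a difference of 0.52 (0.41 to 0.63) just under the fold. Rsad2, or viperin, which makes a chain-terminating nucleotide, was nearly undetected with 0.00999 (0 to 0.0215) and 0.0445 (0.0207 to 0.0683), equivalent to 3 and 14.0 fragments.

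A pseudocount of 1 compresses the differences of genes below 1 FPKM, so the plain ratio of MT to MB was computed as well, with an exact (Clopper-Pearson) interval from the implied fragments that covers counting error only. It was 7.83 (5.50 to 11.5) for Ifit3, 4.71 (2.96 to 7.83) for Isg15, 4.34 (3.11 to 6.19) for Ifit1, 4.07 (2.89 to 5.87) for Oasl2 and 2.65 (1.47 to 5.06) for Irf7. It was 2.06 (1.81 to 2.35) for Irf9, 1.86 (1.73 to 2.00) for Stat2, 1.51 (1.39 to 1.64) for Ddx58 and 4.46 (1.24 to 24.2) for Rsad2. Ifit3, Isg15, Ifit1 and Oasl2 thus had larger ratios than Irf9, Stat2 and Ddx58, whereas the interval of Rsad2 took in the ratios of Irf9, Stat2 and Ddx58. Among the 1724 genes between 0.1 and 0.5 FPKM in MB, a range set after the values of the members were seen, the median ratio was 1.26, 42.1% were at least 1.5 times and 12.3% at least 4 times as high in MT. Of the 5 members in that range (Isg15, Ifit3, Ifit1, Irf7 and Oasl2), 4 were at least 4 times as high. With a pseudocount of 0.01, all 9 members and 27.3% of the 18231 genes passed the fold of 1.5. The interval of the log2 difference lay wholly above 0 for all 9 members and for 33.9% of the 11696 genes, and 4 of the members (Ifit1, Oasl2, Irf7 and Rsad2) did not reach 1 FPKM in either library. Ifit3 and Isg15 reached it in MT but not in MB.

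**Figure D3:**
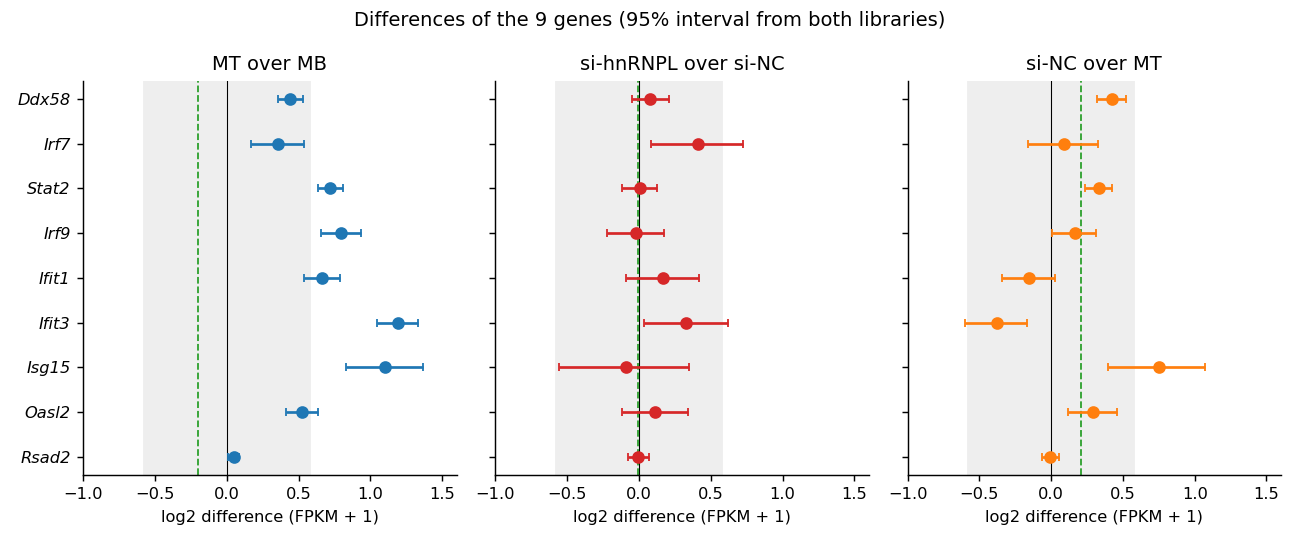
Log2 difference of FPKM + 1 for the 9 members in 3 comparisons, with the 95% interval from both libraries. The gray band is the range within the fold of 1.5 and the dashed green line the median of all genes that reached 1 FPKM in either library. In MT over MB all 9 points lie at higher values than the median of all genes, in si-hnRNPL over si-NC all 9 lie within the band, and in si-NC over MT Isg15 alone lies beyond it.

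The second comparison was between si-hnRNPL and si-NC, both of which were transfected with an siRNA. On the scale of FPKM + 1, none of the 9 members was past the fold of 1.5 in either direction. With a pseudocount of 0.1 or 0.01, Irf7 was past it in the higher direction. Across the 11315 genes that reached 1 FPKM in either library, 1.28% were higher and 0.866% lower past the fold. The members ranged from -0.09 to 0.41 with a median of 0.08, and the median of the 11315 genes was -0.01. Of the 9, 6 had a higher and 3 a lower value in si-hnRNPL, and 48.0% of the 11315 genes had a higher value.

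Irf7 had 0.638 FPKM (0.412 to 0.863) with si-NC and 1.18 (0.809 to 1.55) with si-hnRNPL, the widest difference of the members on the log2 scale at 0.41 (0.09 to 0.73), and a ratio of 1.85 (1.15 to 2.98). Ratio intervals in this comparison were approximated on the log scale from the implied fragments, which are not plain counts in these libraries. Ifit3 had 1.16 (0.887 to 1.44) and 1.72 (1.30 to 2.14), a difference of 0.33 (0.03 to 0.62). These were the members whose interval of the difference lay wholly above 0, as it did for 20.7% of the 11315 genes, although the levels themselves overlapped between the libraries. Of the 11315 genes, 96.6% had a lower difference than Irf7 and 93.9% a lower one than Ifit3.

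The other members did not differ beyond their intervals. Stat2 had 7.47 FPKM (7.02 to 7.92) with si-NC and 7.49 (6.93 to 8.05) with si-hnRNPL, a ratio of 1.00 (0.911 to 1.10). Irf9 had 5.35 (4.81 to 5.89) and 5.26 (4.59 to 5.92), and Ddx58 had 5.19 (4.83 to 5.54) and 5.53 (5.08 to 5.99). For these well-measured genes the intervals of the log2 difference were -0.12 to 0.12 for Stat2, -0.22 to 0.17 for Irf9 and -0.05 to 0.21 for Ddx58, and the fold of 1.5 lay outside these intervals.

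For the effectors the intervals were wider. Isg15 had 4.21 FPKM (3.21 to 5.20) with si-NC and 3.90 (2.71 to 5.08) with si-hnRNPL, a difference of -0.09 (-0.56 to 0.35). Oasl2 had 1.05 (0.852 to 1.26) and 1.22 (0.950 to 1.5), and Ifit1 had 0.726 (0.538 to 0.913) and 0.940 (0.679 to 1.20), with differences of 0.11 (-0.12 to 0.34) and 0.17 (-0.09 to 0.41). Rsad2 had 0.0394 (0.00416 to 0.0747) and 0.0365 (0 to 0.0786), and its ratio of 0.926 had an interval from 0.215 to 3.99, so no difference of Rsad2 was detectable at this depth.

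**Figure D4:**
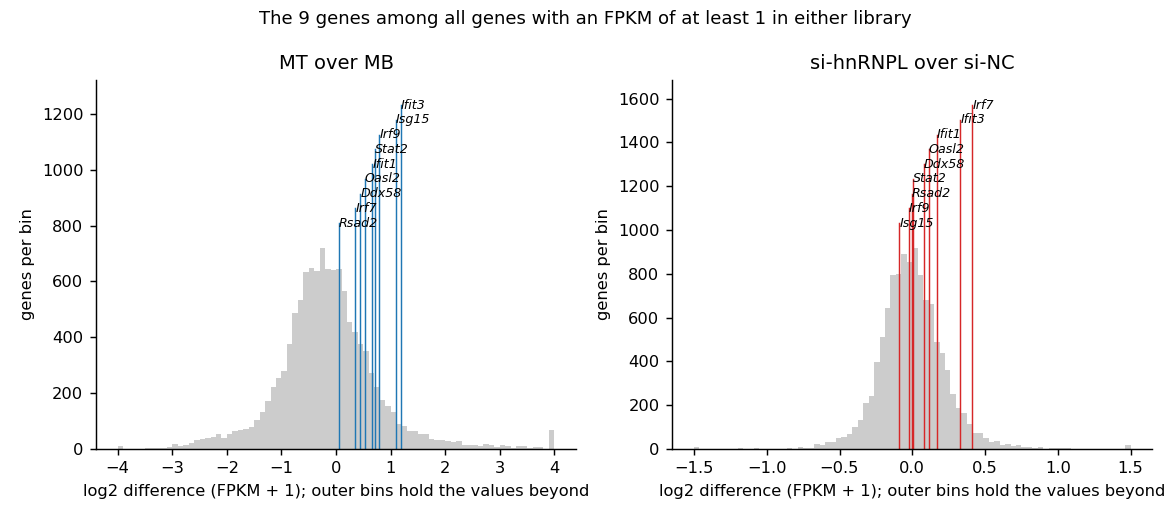
The 9 members among all genes that reached 1 FPKM in either library. The gray histograms show the number of genes per bin of the log2 difference of FPKM + 1, and vertical lines mark the members, including those that stay under 1 FPKM. For MT over MB the lines lie from 0.05 to 1.19 and the median of all genes is -0.20, and for si-hnRNPL over si-NC they lie from -0.09 to 0.41.

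Both polyA cultures were transfected, so the only untransfected myotubes to set beside them were the MT library. It differs from si-NC in RNA selection, hours in DM, library kit and sequencer as well, and the part of transfection cannot be told apart from these. This comparison also shares the MT library with the first comparison and the si-NC library with the second. Relative to MT, 26.4% of the 11380 genes that reached 1 FPKM in either library were higher in si-NC and 9.99% were lower past the fold, and the median difference of these genes was 0.21.

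Isg15 was the member past the fold, with 2.10 FPKM (1.70 to 2.50) in MT and 4.21 (3.21 to 5.20) in si-NC, a log2 difference of 0.75 (0.40 to 1.07). Relative to the median of all genes the difference of Isg15 was 0.54, under the fold, and that of Ifit3 was -0.58, past it in the lower direction. In the deposited values Ifit3 lay the other way, with 1.81 (1.59 to 2.02) and 1.16 (0.887 to 1.44), a difference of -0.38 (-0.60 to -0.17). Thus Isg15 was above and Ifit3 below the MT level, although both are classical targets of ISGF3. Ddx58 had 3.62 FPKM in MT and 5.19 in si-NC, a difference of 0.42 (0.32 to 0.52), and Stat2 had 5.72 and 7.47, a difference of 0.33 (0.24 to 0.43). Oasl2 had 0.677 and 1.05, a difference of 0.29 (0.12 to 0.46), and Irf9 had 4.67 and 5.35, a difference of 0.16 (0.01 to 0.31). For Isg15, Ddx58, Stat2, Oasl2 and Irf9 the interval lay wholly above 0, as for 56.8% of the 11380 genes, and for Ifit3 it lay wholly below 0, as for 26.8%. Ifit1 (0.920 and 0.726 FPKM), Irf7 (0.538 and 0.638) and Rsad2 (0.0445 and 0.0394) had differences of -0.15, 0.09 and -0.01 with intervals that held 0. Relative to the median of all genes, Irf9 and Irf7 stood at -0.04 and -0.12, with the sign turned. The median of the 9 members was 0.16, below the 0.21 of all genes.

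Some members share sequence with other genes, which bears on how fragments were assigned. Of the 36-base words in the exons of Ifit3, 59.6% (1019 of 1710) also occur in its neighbor Ifit3b, and of those of Ifit1 9.16% (240 of 2620) occur in other genes. Ifit3b had 0.0402 FPKM in MB, 0.565 in MT, 0.390 in si-NC and 0.479 in si-hnRNPL, and its log2 difference between MT and MB was 0.59 (0.47 to 0.70). It was thus higher in MT than in MB, as Ifit3 was, and the split of fragments between Ifit3 and Ifit3b is uncertain. Its promoter held 2 ISRE cores, at -188 to -179 and -154 to -145. The other paralogs were lower, with at most 0.0921 FPKM for Oasl1, 0.0570 for Ifit1bl1 and 0.0288 for Ifit1bl2. The annotated span of Irf7 overlaps that of Phrf1 on the opposite strand by 45 bases. That of Irf9 overlaps Rnf31 on the same strand by 123 bases. Whether exons overlap was not computed. The polyA libraries are not stated to keep strand, so reads of Irf7 and Phrf1 in their shared stretch cannot be told apart. The quantified entry of Irf7 (chr7:148449082-148452323) was shorter than the annotated span at both ends and left that stretch out.

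The rest of the pathway was read from lists of genes by role, 127 genes beside the members. Between MT and MB, 17 of the 127 were higher and 8 lower past the fold. Of the 127, 66 reached 1 FPKM in either library, with a median difference of -0.01, beside -0.20 for all genes at that level. Of these 66, 18.2% were higher and 12.1% lower past the fold, beside 15.4% and 28.5% of all genes at that level. Between si-hnRNPL and si-NC 1 was higher and 0 lower, and the median of the 68 that reached 1 FPKM was 0.04, beside -0.01 for all genes. Of these 68, 1.47% were higher, while of all genes 1.28% were higher and 0.866% lower. From MT to si-NC 26 were higher and 1 lower, and the median of the 69 that reached 1 FPKM was 0.42, beside 0.21 for all genes. Of these 69, 37.7% were higher and 1.45% lower, beside 26.4% and 9.99% of all genes. The counts by list below are of genes past the fold, and they also take in genes under 1 FPKM. Of the 18231 genes above 0 in MT or MB, 10.6% were higher in MT past the fold.

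The genes of interferon itself were at or near 0. Of 21 ligand genes, 19 were listed at 0 in MB and 18 in each of MT, si-NC and si-hnRNPL, and the highest value was 0.438 FPKM for Ifnz in MT. Ifnb1, the type I interferon that most cells make first, was listed at 0 in MB, MT and si-hnRNPL. In si-NC it was listed at 0.0560 FPKM (0 to 0.168), equivalent to 1.00 fragment. The receptor genes were expressed, with 12.9, 10.8, 10.2 and 9.58 FPKM for Ifnar1 and 17.1, 22.0, 23.4 and 26.1 for Ifnar2 in MB, MT, si-NC and si-hnRNPL, and none of the 6 receptor genes was past the fold in any of the 3 comparisons.

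Of the 15 sensors and adaptors, Ddx58 included, 0 were higher and 3 lower in MT than in MB. Mb21d1, the cytosolic DNA sensor cGAS, had 5.77 FPKM in MB and 1.35 in MT, a difference of -1.52 (-1.62 to -1.43), and the others were Dhx9 (25.5 and 15.0 FPKM) and the adaptor Myd88 (13.3 and 8.21 FPKM). Ifih1, the RNA sensor Mda5, was low like the effectors, with 0.227, 0.713, 0.575 and 0.492 FPKM in MB, MT, si-NC and si-hnRNPL. In si-NC 5 sensor genes were higher than in MT, among them Dhx9 with 63.9 FPKM and Zbp1, a sensor of Z-form nucleic acid, with 1.94 FPKM against 0.465. Among 11 kinases and factors of interferon induction, Irf5 was the one lower in MT past the fold, with 3.10 FPKM in MB and 0.312 in MT. Irf7 had the widest difference of these between si-hnRNPL and si-NC.

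Of the 6 genes of JAK-STAT signaling, the 2 members Stat2 and Irf9 were past the fold between MT and MB and the kinases Jak1, Jak2 and Tyk2 were not. Among 9 feedback inhibitors, Ptpn6 (2.15 and 0.609 FPKM) and Socs1 (4.97 and 2.41 FPKM) were lower and Socs3 (10.6 and 16.7 FPKM) higher in MT past the fold. Usp18, which removes Isg15 from proteins and dampens receptor signaling, stayed below 1 FPKM with 0.0225, 0.193, 0.129 and 0.342 in MB, MT, si-NC and si-hnRNPL.

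The list of 41 antiviral effectors, 5 of them members, had 12 genes higher and 2 lower in MT than in MB. Ifi27l2a (0.776 and 5.72 FPKM) and Lgals3bp (2.55 and 12.4 FPKM) had the widest differences, both 1.92, ahead of Ifit3 and Isg15. Samhd1 (20.2 and 10.3 FPKM) and Zc3hav1 (26.3 and 14.1 FPKM) were lower. Ifit2, of the same family as Ifit1 and Ifit3, had higher levels than both and did not differ beyond its interval. It had 6.26 FPKM in MB and 6.05 in MT, a difference of -0.04 (-0.12 to 0.04). The classical targets Mx1 and Oas1a were nearly silent in the 4 libraries, with at most 0.0430 and 0.0133 FPKM. Mx2 was also low but was higher in MT, with 0.0143 FPKM in MB and 0.451 in MT, a difference of 0.52 (0.41 to 0.61) under the fold. Between si-hnRNPL and si-NC 0 of the 41 were past the fold. From MT to si-NC 9 were higher, Isg15 among them, with Ifitm3 at 173 and 527 FPKM, Bst2 at 7.89 and 17.8 and Ube2l6, the conjugating enzyme of Isg15, at 11.7 and 41.1, and Dtx3l (4.16 and 2.22 FPKM) was lower.

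Of 10 interferon-induced GTPases, 4 were higher in MT than in MB, among them Igtp (0.155 and 1.42 FPKM) and Gbp9 (0.130 and 0.879 FPKM). Of 13 genes of antigen processing and MHC class I, 3 were higher: Tap2 (1.88 and 5.94 FPKM), H2-T23 (11.8 and 20.5 FPKM) and B2m (140 and 229 FPKM). Psmb10, a subunit of the immunoproteasome, was the pathway gene past the fold between si-hnRNPL and si-NC, with 16 and 10.3 FPKM and a difference of 0.59 (0.39 to 0.79). Of 4 interferon-induced chemokines, 0 were past the fold between MT and MB, and Ccl5 was higher in si-NC (1.08 FPKM) than in MT (0.216 FPKM).

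**Figure D5:**
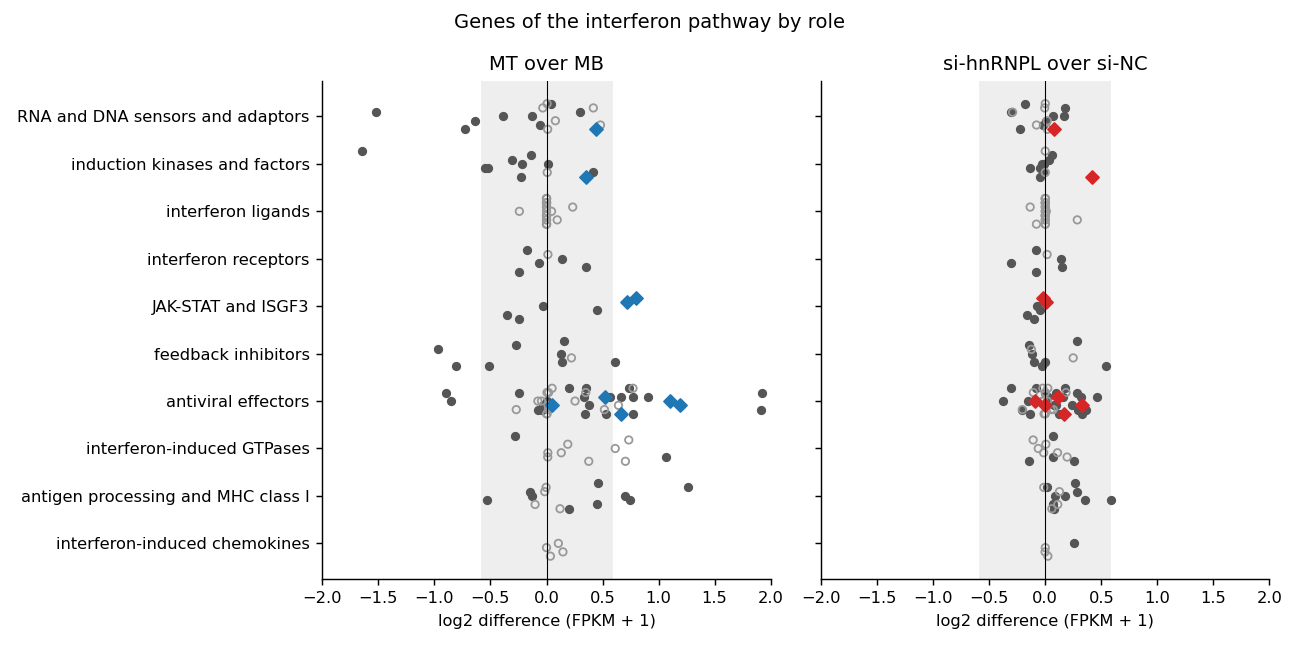
Log2 difference of FPKM + 1 for the genes of the interferon pathway, one row per list ordered by role, for MT over MB (left) and si-hnRNPL over si-NC (right). Diamonds are the 9 members, filled circles other genes that reached 1 FPKM in either library, open circles genes below it, and the gray band the range within the fold of 1.5. In the left panel the points beyond the band include Stat2, Irf9 and 12 antiviral effectors with a higher level in MT, and in the right panel Psmb10 alone lies beyond the band.

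The mean pattern of the members over the 4 libraries, as log2(FPKM + 1) minus the mean of each gene, was -0.60 in MB, 0.05 in MT, 0.22 in si-NC and 0.33 in si-hnRNPL. Oasl2 was the member closest to it and Isg15 the farthest. Among 11133 other genes, the closest by Euclidean distance over these 4 libraries were Asah1, Mapk8ip3, Ccdc157, Rps19-ps3 and Smim14, at distances from 0.0327 to 0.0518. Asah1, which encodes acid ceramidase, had 48.8, 78.0, 87.4 and 92.0 FPKM in MB, MT, si-NC and si-hnRNPL. None of these 5 was on the lists of the interferon pathway.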

How the data were processed

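Libraries of rRNA-depleted RNA (MB, MT) and of poly(A)+ RNA (si-NC, si-hnRNPL) were analyzed, 1 for each condition. The authors trimmed reads, discarded those under 36 bp, aligned the remainder by TopHat to the mm9 build and deposited FPKM values from Cufflinks with a 95% interval for each entry. The submitters' processing notes name TopHat2, Cufflinks and mm9. FPKM are scaled to library size and transcript length, so composition and RNA selection affect them. No raw counts were used.

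Differences are log2 ratios of FPKM + 1, with the half-widths of both log-scale intervals added in quadrature, and "past the fold" means at least 0.58 in size. No test was run. The share of all genes past the fold was computed over genes that reached 1 FPKM in either library. The members, gene lists and the rule for named genes (all members, Hnrnpl, up to 5 genes per list with the largest difference past the fold, otherwise the 3 highest, the paralogs and the 5 genes with the closest pattern) were chosen with earlier results of these data known, as were the alternatives (other pseudocounts, filters, folds, centering and scaling). Some genes outside this rule (Ifih1, Usp18, Ifit2, Mx1, Mx2, Oas1a, Tyk2 and others that name a part of the pathway) were named after their values were seen. Some genes of the lists are not reported here. Implied fragments are the square of 2 times the FPKM over the distance from the FPKM to the upper bound of its interval. Promoters came from RefSeq and were placed on mm9 by exact match. siRNA sequences came from the study's oligonucleotide list. Calculations used pandas 2.3.3, scipy 1.17.1, matplotlib 3.10.9 and numpy 2.4.6 under Python 3.11.15, and were tested on simulated data.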

Additional observations from a re-analysis of the deposited data

How the results depend on the processing

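No member difference past the fold changed sign under any of the alternatives run. Among the smaller differences, centering on the median of all genes changed the sign of Irf7 (0.09 to -0.12) and Irf9 (0.16 to -0.04) in si-NC over MT and of Rsad2 (-0.0040 to 0.0062) in si-hnRNPL over si-NC. For MT over MB, the 5 members past the fold became 9 with a pseudocount of 0.01, 2 among genes with at least 1 FPKM in both libraries and 2 at a fold of 2, and 7 after centering on the median of all genes. The 17 other pathway genes that were higher became 33 with a pseudocount of 0.1, 42 with 0.01, 9 with 1 FPKM in both libraries, 27 after centering and 4 at a fold of 2, and the 8 that were lower became 13, 17 and 2 with pseudocounts of 0.1 and 0.01 and a fold of 2. For si-hnRNPL over si-NC, 1 member (Irf7) was higher with a pseudocount of 0.1 or 0.01, and of the other genes 8 and 12 were higher and 3 and 6 lower with these, and 0 higher at a fold of 2. For si-NC over MT, 2 members were higher with a pseudocount of 0.01 and 0 after centering or at a fold of 2, and 1 (Ifit3) was lower with either pseudocount or after centering. The other pathway genes gave 17 higher and 4 lower after centering, 10 and 0 at a fold of 2, and 9 and 18 lower with pseudocounts of 0.1 and 0.01. Scaling to the upper quartile moved the median of the members in MT from 1.81 to 2.25 FPKM. Smaller pseudocounts widen the differences of genes below 1 FPKM by construction. Depth limits Rsad2 in all 4 libraries, with 3 to 14.0 implied fragments. No paired analysis was possible because each condition has 1 library.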

Other observations

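The machinery of RNA interference, which the transfected siRNAs use, was measured beside the interferon genes. Of 7 genes found, Tarbp2, a partner of Dicer, was lower in MT (13.6 FPKM) than in MB (42.8 FPKM), and no other was past the fold of 1.5 in that comparison. Ago2, the Argonaute that cuts targets, had 18.8, 12.9, 11.3 and 10.6 FPKM in MB, MT, si-NC and si-hnRNPL. Ago3 and Ago4 were lower in si-NC (1.45 and 0.314 FPKM) than in MT (6.12 and 1.00 FPKM), 2 libraries that also differ in RNA selection. Between si-hnRNPL and si-NC 0 of the 7 genes were past the fold. Prkra, a partner of Dicer that also activates the antiviral kinase Eif2ak2, had 20.8, 17.1, 19.6 and 20.3 FPKM in MB, MT, si-NC and si-hnRNPL, and Eif2ak2 had 7.92, 9.26, 9.66 and 9.08 FPKM.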
